A study of Mus musculus with 8 samples.

Results

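The genes described here encode the PIWI proteins and the enzymes and scaffold proteins that make PIWI-interacting RNAs (piRNAs), 10 genes in all of 21444 genes with at least 1 read. They were taken from a given list of names: Piwil2, Piwil4, Ddx4, Mov10l1, Pld6, Gpat2, Asz1, Mael, Gtsf1 and Henmt1. Each was valued by its transcript with the highest total over 8 libraries. RNA was measured in primordial germ cells (the cells that later form eggs and sperm), which were sorted by flow cytometry for the dPE_Oct4 GFP reporter from mouse embryos at embryonic day 11.5. The 4 Prmt5 KO libraries came from Blimp1Cre;Prmt5flox/flox embryos and the 4 Control libraries from Blimp1Cre;Prmt5flox/+ embryos, all on a mixed C57BL/6 and 129 background. Both groups therefore carry the Cre, which is driven by Blimp1 (Prdm1), and the Control cells keep 1 copy of Prmt5 that is not floxed. The input of a library was 50 pg of total RNA. The labels give neither the embryos' sex nor whether replicates are separate embryos, so p-values measure only how much these libraries vary, some of which may be technical. Positions are on GRCm38 and credited to GENCODE M21.

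PIWI proteins are Argonaute family proteins that bind piRNAs and use them to find transposon transcripts in germ cells. Piwil2 encodes MILI, which cuts target RNA in the cytoplasm, and Piwil4 encodes MIWI2, which enters the nucleus of fetal male germ cells and directs DNA methylation to transposons. Precursor RNAs are unwound by helicases, cut at the outer mitochondrial membrane and then trimmed and methylated at the end of the piRNA. PRMT5 places symmetric dimethylarginine on PIWI proteins, and several Tudor domain proteins bind that mark. The comparison addresses whether RNA of these genes differs between germ cells of the 2 genotypes. It does not measure the proteins, their methylation or piRNAs.

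Promoter sequence is shown first for the members whose level varied together across libraries (Mael, Asz1, Ddx4) and for others that hold the same motif. Many promoters of germline genes are rich in CpG and are methylated in somatic tissue, and in mouse embryonic stem cells a repressor complex with MAX and MGA, which bind CACGTG, and E2F6, which binds TCCCGC, occupies many of them. RefSeq promoters on GRCm38.p6 were found for 9 of the 10 genes, all but Piwil2, as 11 windows of the 250 bases before a start site. CACGTG was in 4 of the 11 windows and in 6.02% of all 32851 RefSeq promoter windows. TCCCGC, searched on both strands, was in 2 of the 11 windows and in 16.9% of all windows. The 4 windows with CACGTG belong to Mael, Mov10l1, Ddx4 and Pld6, and those of Mael and Ddx4 also hold TCCCGC. At least 10 CpG were found in 9 of the 11 windows and in 37.8% of all windows. The Ddx4 window had 31 CpG, that of Mael 18, that of Mov10l1 19 and that of Asz1 15, against a median of 6 over all windows. A match describes letters only, and no promoter was assayed in these samples. The sequences run 5′ to 3′ on the gene's strand and stop before the first annotated exon, with CACGTG and TCCCGC, in either orientation, in capitals; CACGTG reads the same on both strands and no 2 matches overlapped. The Asz1 window holds neither motif. The last line is the stretch around the CACGTG of Ddx4, which lies within the first exon of the longer Ddx4 transcript. That transcript starts inside the Ddx4 window. Only 85 of the 250 bases lie before it, with neither motif among them, and the 31 CpG are counted over the whole window.
Mael, chr1:166238748-166238994, minus strand: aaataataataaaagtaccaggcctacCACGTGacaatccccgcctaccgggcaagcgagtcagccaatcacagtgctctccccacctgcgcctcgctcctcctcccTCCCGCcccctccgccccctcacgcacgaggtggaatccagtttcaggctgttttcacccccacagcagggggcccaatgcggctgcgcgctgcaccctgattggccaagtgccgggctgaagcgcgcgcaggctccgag
Mov10l1, chr15:88982744-88982908, plus strand: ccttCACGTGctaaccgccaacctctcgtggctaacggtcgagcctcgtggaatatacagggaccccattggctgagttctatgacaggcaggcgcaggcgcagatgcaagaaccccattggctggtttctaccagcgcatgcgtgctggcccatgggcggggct
Asz1, chr6:18109062-18109311, minus strand: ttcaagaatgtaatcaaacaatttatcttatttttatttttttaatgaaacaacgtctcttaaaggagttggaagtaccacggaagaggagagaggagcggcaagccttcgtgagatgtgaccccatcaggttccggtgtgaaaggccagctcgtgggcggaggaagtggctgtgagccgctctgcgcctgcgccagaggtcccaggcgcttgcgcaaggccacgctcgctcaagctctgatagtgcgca
Pld6, chr11:59787658-59787907, minus strand: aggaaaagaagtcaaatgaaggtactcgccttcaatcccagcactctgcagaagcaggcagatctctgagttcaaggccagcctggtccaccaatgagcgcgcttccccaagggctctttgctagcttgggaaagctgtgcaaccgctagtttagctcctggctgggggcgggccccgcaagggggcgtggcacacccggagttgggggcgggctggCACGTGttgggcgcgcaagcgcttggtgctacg
Ddx4, chr13:112652322-112652351, minus strand: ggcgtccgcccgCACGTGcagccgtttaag

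The libraries were checked before the genes. The summed gene counts ran from 4318972 to 6549504 in Prmt5 KO and from 1811428 to 5844441 in Control, where replicates 2 and 3 were the shallowest. Prmt5, the targeted gene, was at 39.9, 40.5, 35.3 and 26.4 CPM (a gene's reads relative to all reads of the genes tested in a library, scaled between libraries) in Prmt5 KO 1 to 4, against 89.4, 171, 172 and 118 CPM in Control 1 to 4, with a log2 fold change of -1.95 (standard error 0.272, edgeR adjusted p = 0.0389). The 11 primordial germ cell markers summed to 3077 to 3668 CPM in Prmt5 KO and 3034 to 3501 CPM in Control, and Kit, the receptor of stem cell factor, averaged 1060 ± 69.2 CPM in Prmt5 KO and 1005 ± 102 CPM in Control (SD, n = 4 each). The 12 markers of somatic gonad and mesonephros, all with at least 1 read, summed to 599 CPM in Prmt5 KO 1 and to 23.7 to 48.6 CPM in the other Prmt5 KO libraries, against 25.0 to 44.6 CPM in Control. Of these, Tcf21 was at 0 in every Control library and in Prmt5 KO 2 to 4. In a multidimensional scaling plot, Prmt5 KO 4 was set apart on the first axis (-2.69, all others 0.21 to 0.86) and Prmt5 KO 1 on the second (-2.26, all others -0.39 to 0.89). Values without them are given beside the results they move.

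Of the 10 genes, 7 could be tested, and none of the 7 was called between Prmt5 KO and Control. Between 8 and 10 of the 10 genes had a read in each library of either group. Enough reads for the test were found for 7: Piwil2, Ddx4, Mov10l1, Pld6, Gpat2, Asz1 and Mael. Piwil4, Gtsf1 and Henmt1 did not pass the filter on low counts and are described by their reads. At an adjusted p of 0.05, 0 of the 7 were called by edgeR, against 0.0273% of all 10990 genes tested, and 0 of the 7 by DESeq2, against 0.974% of all genes. At an unadjusted p of 0.05, edgeR called 0 of the 7, against 8.15% of all genes, and limma voom called 0 by adjusted p, against 0.0091% of all genes, and 1, Gpat2, by unadjusted p, against 8.56% of all genes. The groups overlapped for each of the 10 genes, while they did not overlap for 4.9% of all genes tested. The median log2 fold change of the 7 was 0.05, against 0.03 over all genes tested, and 2 of the 7 were below 0, against 47.3% of all genes tested. In limma voom the median was -0.16 and 6 of the 7 were below 0, against 51.7% of all genes. On leaving out 1 library in turn, the median ran from -0.26 without Prmt5 KO 4 (6 of 8 tested genes below 0) to 0.39 without Control 1 (2 of 8 below 0). The summed level of the 10 genes was 368, 180.2, 322 and 663 CPM in Prmt5 KO 1 to 4, against 572, 206, 242 and 428 CPM in Control 1 to 4. The means were 383 ± 203 CPM in Prmt5 KO and 362 ± 171 CPM in Control (SD, n = 4 each), a difference smaller than the spread within either group. The difference of 21.1 CPM turned to -72.1 CPM without Prmt5 KO 4, to -30.9 CPM without Control 2 and to -19.0 CPM without Control 3, and was 91.2 CPM without Control 1 and 88.8 CPM without Prmt5 KO 2. In such bulk samples, fewer cells expressing a gene and less RNA per cell cannot be told apart.

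**Figure D1:**
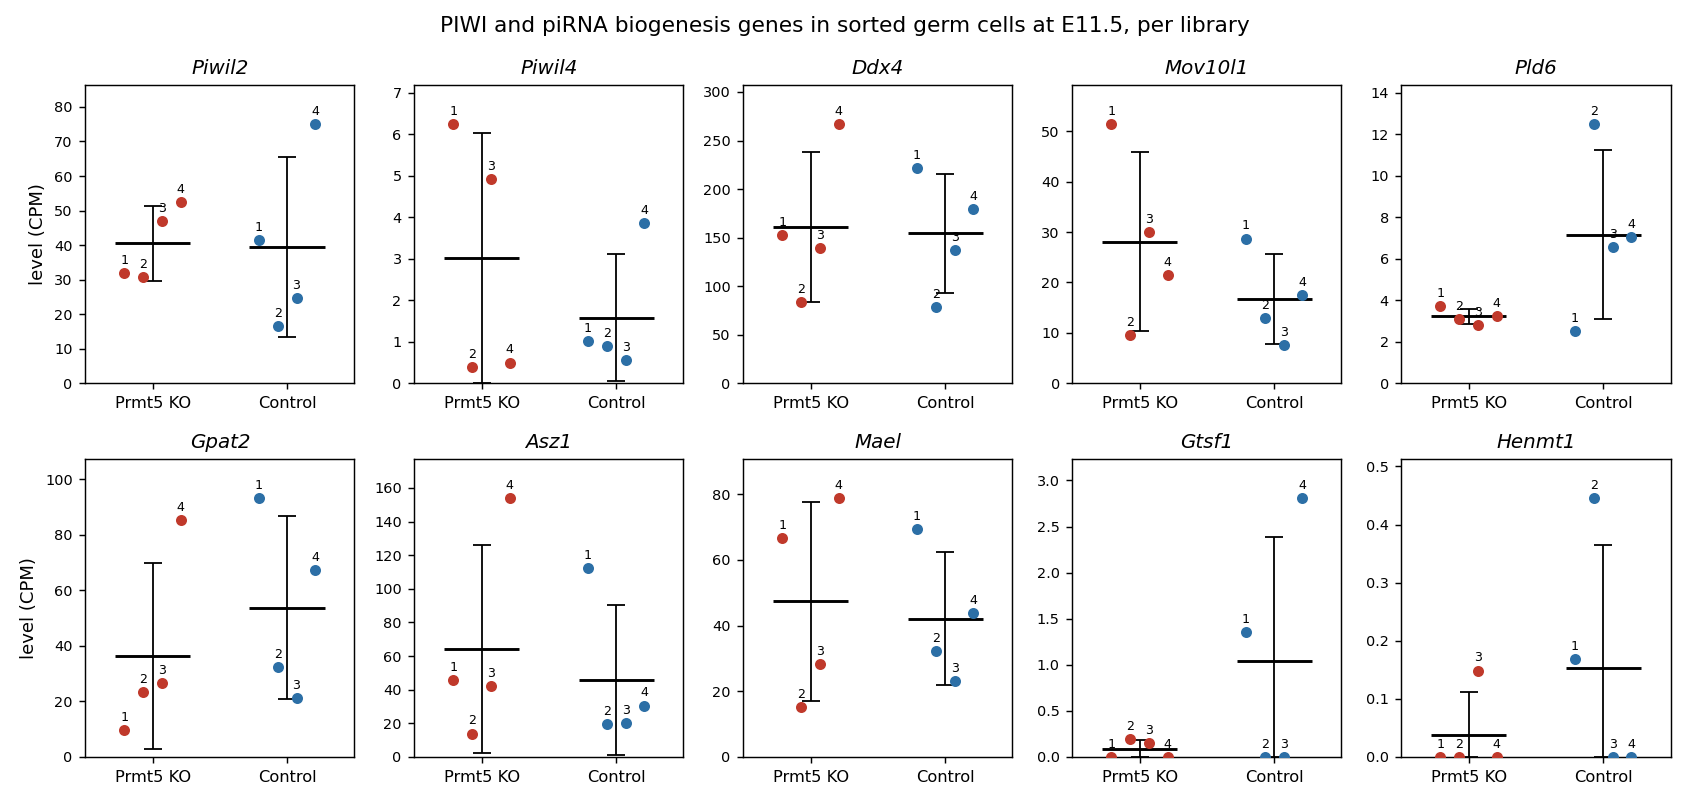
Level of each of the 10 genes in CPM (linear axes from 0, a scale of its own in each panel) in Prmt5 KO (left) and Control (right) libraries. Points are libraries with their replicate number, horizontal lines are means and vertical bars are 1 SD, drawn down to 0 at most (n = 4 each); the groups overlap in every panel.

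Of the PIWI genes, Piwil2 was tested and not called, while Piwil4 had too few reads for the test. Piwil2 (ENSMUSG00000033644, chr14:70372477-70429383, minus strand) was at 31.9, 30.6, 47.0 and 52.3 CPM in Prmt5 KO 1 to 4, against 41.6, 16.5, 24.7 and 75.1 CPM in Control 1 to 4. Control held both the lowest and the highest library. The means were 40.5 ± 10.9 CPM in Prmt5 KO and 39.5 ± 25.9 CPM in Control (SD, n = 4 each), with a log2 fold change of 0.02 (standard error 0.434, edgeR adjusted p = 0.993) and a 95% interval from -0.92 to 0.96. A change of 2-fold in either direction lies just outside that interval, and smaller ones within it. Without Prmt5 KO 4 the log2 fold change of Piwil2 was -0.13 (edgeR adjusted p = 0.969). Piwil4 (ENSMUSG00000036912, chr9:14696230-14740733, minus strand) had 37, 2, 33 and 2 reads in Prmt5 KO 1 to 4, against 6, 2, 1 and 22 reads in Control 1 to 4. Prmt5 KO 1 and 3 and Control 4 carried most of its reads, and the other 5 libraries were at 0.388 to 1.01 CPM. Its summed reads gave a ratio of Prmt5 KO to Control of 1.71 with an exact 95% interval of 1.11 to 2.70 that covers counting error only, while single Prmt5 KO libraries ran from 0.388 to 6.25 CPM. With no filter on low counts, its log2 fold change was 0.88 (standard error 1.07, edgeR adjusted p = 0.771). The measured Piwil4 transcript shares 118 bases with the antisense gene Gm10706, and strand use in counting was not stated.

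Neither RNA helicase gene of the list was called. Ddx4 (ENSMUSG00000021758, chr13:112598333-112652475, minus strand), the mouse VASA homologue of the germ granule (nuage), was at 152, 83.7, 139.7 and 267 CPM in Prmt5 KO 1 to 4, against 222, 78.6, 138 and 179.8 CPM in Control 1 to 4. In each group replicate 2 was lowest. The means were 161 ± 77.0 CPM in Prmt5 KO and 154 ± 61.1 CPM in Control (SD, n = 4 each), with a log2 fold change of 0.05 (standard error 0.346, edgeR adjusted p = 0.987) and a 95% interval from -0.70 to 0.80. Without Prmt5 KO 4 the log2 fold change of Ddx4 was -0.31 (edgeR adjusted p = 0.847). Ddx4 made up 38.1% to 56.9% of the reads of the 10 genes in a library. Mov10l1 (ENSMUSG00000015365, chr15:88982909-89055152, plus strand), whose protein binds piRNA precursors and is needed for their processing, was at 51.5, 9.50, 30.1 and 21.4 CPM in Prmt5 KO 1 to 4, against 28.7, 12.9, 7.68 and 17.6 CPM in Control 1 to 4. The groups overlapped, with a log2 fold change of 0.73 (standard error 0.549, edgeR adjusted p = 0.783), the highest of the 7 genes. Prmt5 KO 1, the library with the high somatic marker sum, was its highest library, and without it the log2 fold change was 0.26 (edgeR adjusted p = 0.941); the part of somatic RNA in this was not tested. Mov10l1-202, a shorter annotated transcript of 8 exons, had 297 reads in Prmt5 KO and 195 in Control, which is 46.3% and 62.3% of the reads of Mov10l1-201 in Prmt5 KO and in Control, with no test since the transcripts share reads.

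Of the 3 genes whose proteins sit on the outer mitochondrial membrane, where piRNA precursors are cut, 2 were lower and 1 higher on average, and none was called. Pld6 (ENSMUSG00000043648, chr11:59783897-59787645, minus strand) encodes MitoPLD (Zucchini), the nuclease held to make the 5′ ends of piRNAs. It was at 3.72, 3.10, 2.83 and 3.24 CPM in Prmt5 KO 1 to 4, against 2.54, 12.5, 6.58 and 7.04 CPM in Control 1 to 4. The Prmt5 KO libraries lay close together, above Control 1 and below the other Control libraries. Its log2 fold change was -1.13 (standard error 0.658, edgeR adjusted p = 0.703), the lowest of the 7, with a 95% interval from -2.55 to 0.29. It rested on 70 reads in Prmt5 KO and 95 in Control, of a transcript annotated as a processed transcript, and was -0.72 without Control 2. The transcript annotated as coding, Pld6-202, had 2, 1, 2 and 1 reads in Prmt5 KO 1 to 4, against 0, 10, 2 and 20 in Control 1 to 4, so Control 2 and 4 held nearly all of its reads.

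Gpat2 (ENSMUSG00000046338, chr2:127425199-127436092, plus strand), a mitochondrial acyltransferase-like protein that piRNA production needs, was at 9.63, 23.4, 26.8 and 85.2 CPM in Prmt5 KO 1 to 4, against 93.5, 32.6, 21.4 and 67.5 CPM in Control 1 to 4. The groups overlapped, with a log2 fold change of -0.59 (standard error 0.596, edgeR adjusted p = 0.846), and of -1.24 in limma voom (adjusted p = 0.579). Its lowest library was Prmt5 KO 1, without which the log2 fold change was -0.27, and Prmt5 KO 4 was the highest of its group, without which it was -1.45 (edgeR adjusted p = 0.404). Asz1 (ENSMUSG00000010796, chr6:18050964-18109061, minus strand) encodes GASZ, an ankyrin repeat scaffold of the granules between mitochondria. It was at 45.9, 14.0, 42.0 and 154 CPM in Prmt5 KO 1 to 4, against 112, 19.6, 20.3 and 30.6 CPM in Control 1 to 4. A single library led each group, Prmt5 KO 4 and Control 1, and the highest library was 11.1 times the lowest. Its log2 fold change was 0.46 (standard error 0.675, edgeR adjusted p = 0.919), turned to -0.45 without Prmt5 KO 4 and was 1.43 without Control 1 (edgeR adjusted p = 0.738).

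Mael, Gtsf1 and Henmt1 act beside or after PIWI proteins. Mael (ENSMUSG00000040629, chr1:166201201-166238747, minus strand) encodes Maelstrom, a nuage protein needed for transposon silencing. It was at 66.7, 15.3, 28.4 and 79.0 CPM in Prmt5 KO 1 to 4, against 69.5, 32.1, 23.0 and 44.0 CPM in Control 1 to 4, and Prmt5 KO held both the lowest and the highest library. The log2 fold change was 0.15 (standard error 0.491, edgeR adjusted p = 0.971). It turned to -0.21 without Prmt5 KO 4 (edgeR adjusted p = 0.953) and to -0.06 without Prmt5 KO 1 (edgeR adjusted p = 0.986). Gtsf1 (ENSMUSG00000022487, chr15:103402405-103430470, minus strand) encodes a small zinc finger partner of PIWI proteins that aids cutting of target RNA. It had 0, 1, 1 and 0 reads in Prmt5 KO 1 to 4, against 8, 0, 0 and 16 reads in Control 1 to 4. All 24 Control reads came from Control 1 and 4, the deepest of that group (5844441 and 5583550 counts). Prmt5 KO 1 and 3, with 0 and 1 reads, were deeper still (6116071 and 6549504 counts). The summed ratio of Prmt5 KO to Control was 0.0598, with an exact 95% interval of 0.00685 to 0.241 that covers counting error only. Where no read was seen, levels of up to 0.507 CPM in Prmt5 KO 1, 0.748 CPM in Prmt5 KO 4, 1.34 CPM in Control 2 and 1.65 CPM in Control 3 were not detectable (3 reads each). With no filter, the log2 fold change of Gtsf1 was -3.33 (standard error 1.39, edgeR unadjusted p = 0.0240, adjusted p = 0.480). In that fit 1965 of 21444 genes had an unadjusted p under 0.05. Henmt1 (ENSMUSG00000045662, chr3:108939873-108960774, plus strand), the methyltransferase that protects the 3′ end of piRNAs, had 1 read in Prmt5 KO and 2 in Control over all libraries, so no difference was detectable at this depth. The Henmt1 transcript shares 348 bases with Gm9857 on the opposite strand.

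**Figure D2:**
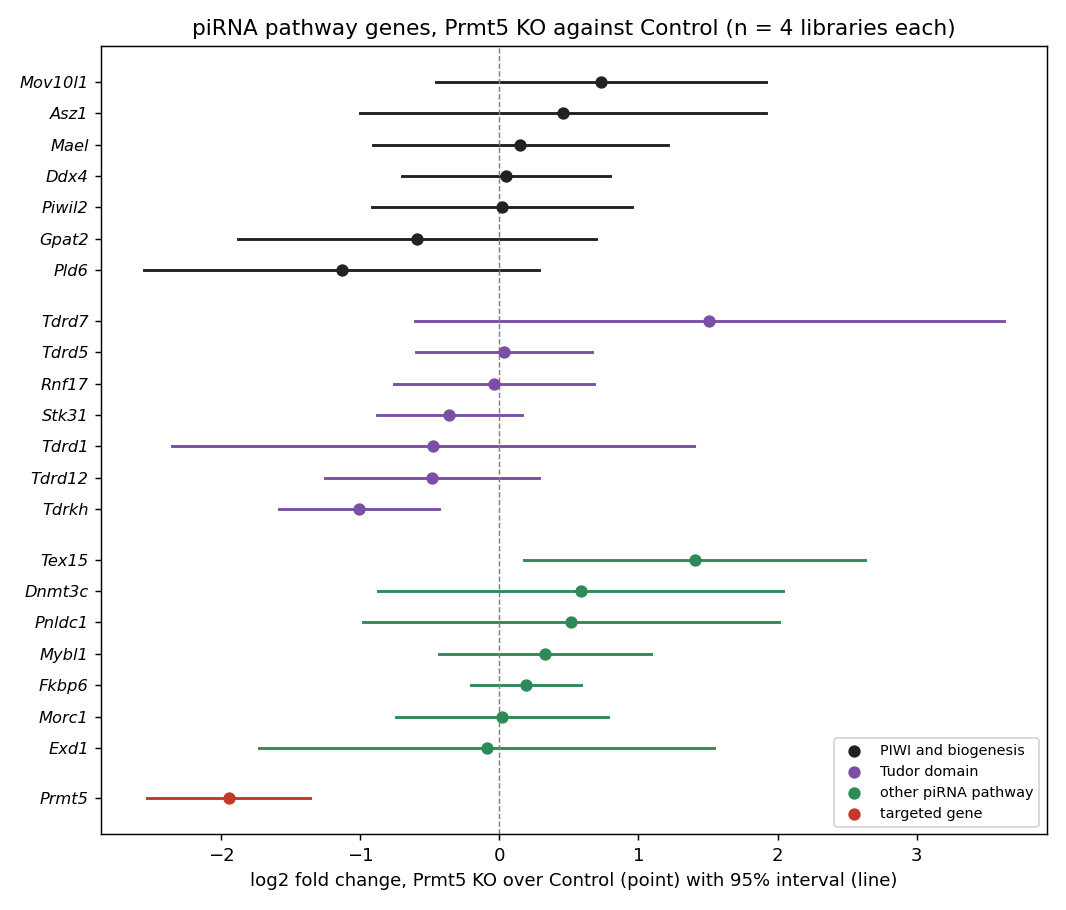
Log2 fold change of Prmt5 KO over Control (points) with 95% intervals (lines) for the tested genes of the piRNA pathway, grouped by list, and for Prmt5. The intervals of all 7 PIWI and biogenesis genes cross 0, while those of Tdrkh, Tex15 and Prmt5 do not; only Prmt5 passed an adjusted p of 0.05 among the genes shown.

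Per length of the measured transcript, the genes spanned a wide range of levels. Averaged over all 8 libraries, Ddx4 was at 52.3 ± 21.4 CPM per kb, Asz1 at 31.6 ± 29.3 and Mael at 29.0 ± 15.5 (SD, n = 8). Gpat2 followed at 17.1 ± 12.2 CPM per kb, Piwil2 at 8.13 ± 3.75, Mov10l1 at 5.54 ± 3.54 and Pld6 at 2.96 ± 1.95 (SD, n = 8). Piwil4 and Gtsf1 were at 0.695 and 0.688 CPM per kb and Henmt1 at 0.0478. Ddx4 ranked first in 7 of the 8 libraries and Asz1 in the other, Prmt5 KO 4. Within libraries, Mael was above Gpat2 and Pld6 above Piwil4 in 8 of 8. Gpat2 was above Piwil2, and Piwil2 above Mov10l1, in 7 of 8, Prmt5 KO 1 being the exception in both cases. Mov10l1 was above Pld6 in 6 of 8 and Asz1 above Mael in 3 of 8, so the order of Asz1 and Mael was not the same from library to library. Priming from the poly(A) tail, if used here, can favour the 3′ part of long transcripts. Levels per length of long and short genes therefore compare only roughly.

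Levels of several of these genes varied widely between libraries of the same genotype. The summed level of the 10 genes varied 3.68-fold over the libraries, from 180.2 CPM in Prmt5 KO 2 to 663 CPM in Prmt5 KO 4, while the sum of the germ cell markers varied 1.21-fold. That sum is made up mostly of its abundant genes, such as Kit and Sall4, and single markers varied more. Dazl varied 5.89-fold, Nanos3 3.95-fold, Lin28a 3.43-fold, Dnd1 2.17-fold and Pou5f1 2.15-fold, and the other 6 markers at most 1.69-fold. The 7 tested piRNA genes varied 3.40-fold (Ddx4) to 11.1-fold (Asz1). By this range Ddx4 varied no more than Lin28a or Nanos3, which had fewer reads. The biological coefficient of variation that edgeR estimated within groups was 0.647 for Asz1, against 0.351 for the trend of all genes at its abundance, a ratio of 1.84. That ratio was 1.52 for Gpat2, 1.42 for Ddx4, 1.28 for Mael, 1.10 for Piwil2, 1.07 for Mov10l1 and 0.816 for Pld6. Among the germ cell markers it was 1.72 for Dazl, 1.01 for Lin28a and 0.897 for Nanos3. The other markers were at most at 1.08 (Pou5f1). For Dazl, 99.85% of all genes tested had a smaller ratio. Of all genes tested, 99.9% had a smaller ratio than Asz1, 99.5% a smaller one than Gpat2, 98.6% a smaller one than Ddx4 and 94.9% a smaller one than Mael. Asz1 had between 37 and 665 reads in a library, and Ddx4 between 176 and 1311.

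The same libraries were high or low for several of the genes. Over the 8 libraries, log2 CPM correlated with r = 0.89 between Asz1 and Ddx4, 0.87 between Asz1 and Mael and 0.79 between Mael and Ddx4, which is given as a description, since all values share the library scaling. Of the 21 pairs among the 7 tested genes, 14 had r above 0, with a median of 0.48, and Pld6 had r below 0 with each of the other 6. Prmt5 KO 4 and Control 1 were the high libraries, and Prmt5 KO 2, Control 2 and Control 3 the low ones. In Control, the shallowest libraries, 2 and 3, had the low sums and the deepest, 1 and 4, the high ones. In Prmt5 KO, the shallowest library, 4, had the highest sum. Over the 8 libraries r between log2 total counts and the mean of the 7 genes was 0.44, and the part of depth in these levels was not tested.

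Dazl, an RNA-binding protein gene of the germ line, was the one germ cell marker that followed the same pattern. It was at 163, 56.2, 97.2 and 185 CPM in Prmt5 KO 1 to 4, against 331, 79.5, 110.3 and 237 CPM in Control 1 to 4, with r = 0.89 to the mean of the 7 tested genes (n = 8 libraries). For the other 10 markers r ran from -0.60 for Lin28a to 0.16 for Dnd1. Dppa3, another of these markers, averaged 433 ± 75.7 CPM in Prmt5 KO and 484 ± 56.8 CPM in Control (SD, n = 4 each). Its log2 fold change was -0.16 (edgeR adjusted p = 0.835). Of the genes outside the list, the 5 with the most similar pattern by Pearson r over the 8 libraries, among 10983 ranked, were Maf1 (r = 0.98), Dis3l2 (0.97), Fundc1 (0.96), Lrrc47 (0.96) and Slc29a2 (0.95). With 8 libraries and so many genes ranked, values this high are a description of these libraries.

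**Figure D3:**
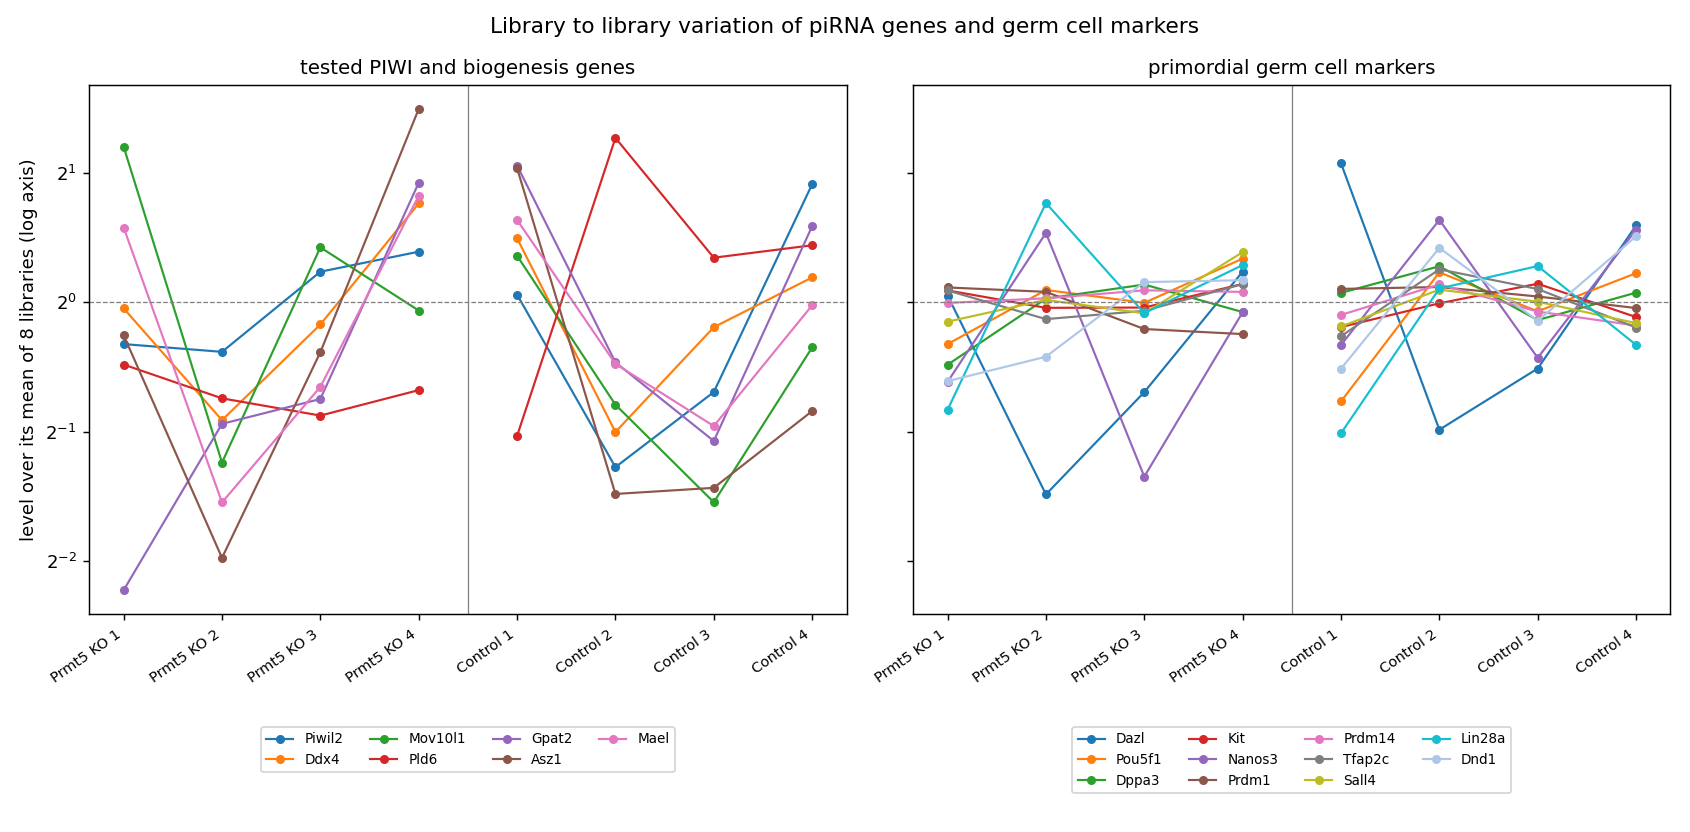
Level of each gene divided by its mean over the 8 libraries (log axis) for the 7 tested PIWI and biogenesis genes (left) and 11 germ cell markers (right), Prmt5 KO libraries before Control. Lines only join the points of a gene within a group; Asz1, Ddx4 and Mael peak in Prmt5 KO 4 and Control 1, Dazl runs with them, Nanos3 and Lin28a vary as widely as Ddx4 in another pattern, and Kit and Prdm14 stay near 1.

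The rest of the piRNA pathway was read from 2 further lists. Of 9 Tudor domain genes of the piRNA pathway, 7 were tested. By edgeR or limma voom 0 were called in either direction, against 0.0273% and 0.0091% of all genes. At an unadjusted p of 0.05 each called 1, against 8.15% of all genes by edgeR and 8.56% by limma voom. DESeq2 called 1 by adjusted p, against 0.974% of all genes, and gave Tdrd1 no p. The median log2 fold change of the 7 was -0.36 in edgeR, with 5 of 7 below 0 against 47.3% of all genes. It turned to 0.09 without Control 1. Tdrkh, a Tudor protein of the mitochondrial membrane that recruits PIWI proteins for trimming, was at 55.0, 53.3, 50.4 and 36.6 CPM in Prmt5 KO 1 to 4, against 110.7, 67.9, 84.5 and 129 CPM in Control 1 to 4. All Prmt5 KO libraries lay below all Control libraries, and the groups did not overlap for 4.9% of all genes tested. The log2 fold change of Tdrkh was -1.01 (standard error 0.267, edgeR adjusted p = 0.292). DESeq2, an alternative tool, called it (adjusted p = 0.0311), as it did 0.974% of all genes. The measured Tdrkh transcript shares 2255 bases with Oaz3 on the opposite strand, so its value is uncertain. Tdrd7, at 42.4 CPM in Prmt5 KO 4 and 18.8 CPM in Control 1, ran from 5.81 to 10.7 CPM in the other Prmt5 KO libraries and from 0.549 to 2.29 CPM in the other Control libraries, with a log2 fold change of 1.51 (edgeR adjusted p = 0.750). It was 0.52 without Prmt5 KO 4 (edgeR adjusted p = 0.939), 3.60 without Control 1 (edgeR adjusted p = 0.496) and 2.49 with the replicate number as a block.

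Of 11 other pathway genes, 7 were tested and 0 were called by edgeR, DESeq2 or limma voom, against 0.0273%, 0.974% and 0.0091% of all genes. DESeq2 gave 1 of them, Dnmt3c, no adjusted p. The median log2 fold change of the 7 was 0.33 in edgeR, with 1 of 7 below 0, against 47.3% of all genes. At an unadjusted p of 0.05 edgeR called 1 of the 7, against 8.15% of all genes. That gene was Tex15, which acts with MIWI2 in transposon methylation. It was at 30.2, 122, 44.5 and 160.5 CPM in Prmt5 KO 1 to 4, against 23.7, 40.6, 9.33 and 59.5 CPM in Control 1 to 4. The groups overlapped, with a log2 fold change of 1.41 (standard error 0.568, edgeR adjusted p = 0.551). Under the alternatives it ran from 0.96 to 1.85. Fkbp6, a co-chaperone of piRNA loading, averaged 264 ± 43.4 CPM in Prmt5 KO and 231 ± 49.6 CPM in Control (SD, n = 4 each), with a log2 fold change of 0.19 (edgeR adjusted p = 0.835). Piwil1, which encodes MIWI, the PIWI protein of later male germ cells, had 1 read in Prmt5 KO and 1 in Control.

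**Figure D4:**
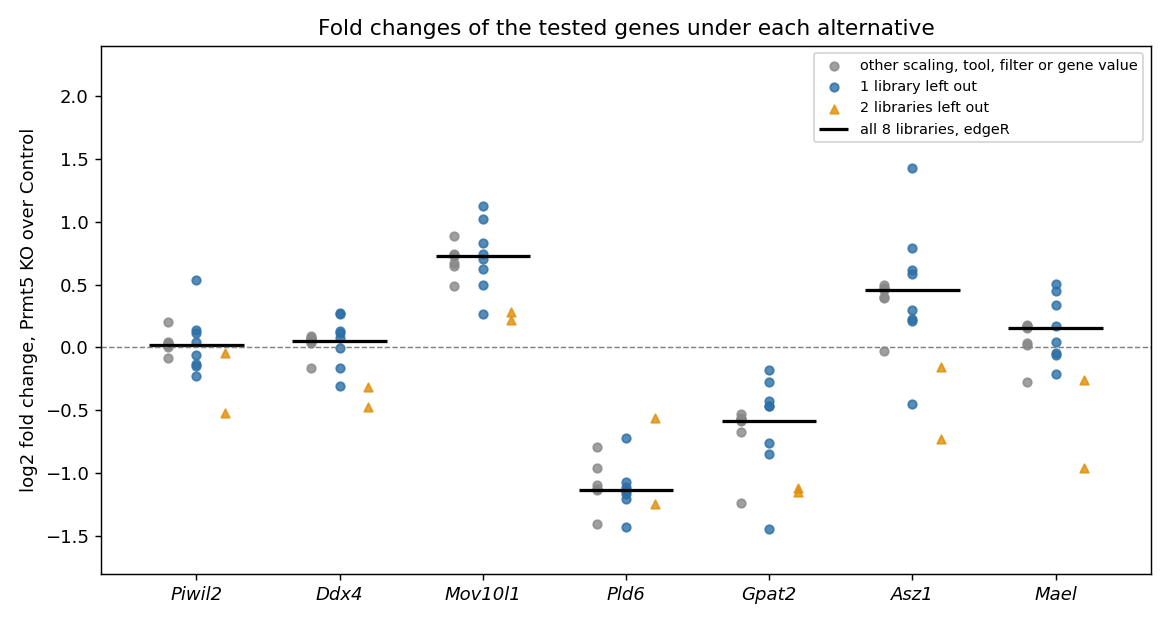
Log2 fold change of Prmt5 KO over Control for the 7 tested genes with all 8 libraries (black lines), under other scalings, tools, filters or gene values (grey), with 1 library left out (blue) and with 2 left out (orange). Mov10l1 stays above 0 and Pld6 and Gpat2 below 0 under every alternative that gave a value, while Piwil2, Ddx4, Asz1 and Mael cross 0.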

How the data were processed

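The authors deposited 1 file a library, with raw read counts for each Ensembl transcript that had a read. GRCm38 and mm10 are the builds in the submitters' processing notes; the aligner, counter and strand setting were not given in the sources used here. Per the labels' protocols, libraries followed a published protocol with an input of 50 pg of RNA. Of 66262 transcript identifiers, 64258 (97.0%) matched GENCODE M21; the 2004 others held 1.75% to 1.90% of a library's counts and were left out. Transcripts of a gene share reads (identical counts were found in 1132 of the 6532 genes with several transcripts of at least 100 counts), so a gene's value was its highest transcript. CPM used TMM-scaled totals of the genes tested.

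Genes passing edgeR's filterByExpr (minimum count 10, total 15) were tested by the robust quasi-likelihood test of edgeR over the 8 libraries, adjusted by Benjamini-Hochberg over 10990 genes at 0.05; standard errors are the log2 fold change divided by the square root of F. The test was checked on simulated counts with large planted changes in more abundant genes. That check does not cover smaller changes or scarce genes such as Pld6. DESeq2 1.42.0, limma 3.58.1 and edgeR 4.0.16 ran under R 4.3.3. Alternatives covered scaling, tool, filter, robust estimation, replicate block, gene value, depth and left-out libraries. Correlations between libraries ran from 0.917 to 0.966, so no 2 libraries were duplicates.

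The members and lists were chosen with earlier results of these data known. Named were the 10 members, Prmt5, up to 4 called or else the 2 genes of smallest p from each other list, the most abundant marker of each cell type, and the 5 genes most like the members; other genes were named after their values were seen. Of the other lists, 9 Tudor domain genes gave 8 with a read and 11 other pathway genes gave 8; the rest are not analysed here.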

Additional observations from a re-analysis of the deposited data

Results flagged for a closer look

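In 64 sets of 4 libraries (each named gene and library measure in each group), a library far from the other 3 was searched for. The search found 11, all of them high. Chance gives about 1 in 20, or 3.2, for independent values with a normal distribution, which these are not. The 11 are therefore not read as an excess. Among the piRNA genes, Asz1 was set apart by Control 1 (112 CPM, the others 19.6 to 30.6), Piwil4 by Control 4 (3.87 CPM, the others 0.549 to 1.01) and Henmt1 by the 1 read of Prmt5 KO 3 (0.149 CPM). Tdrd7 was high in Prmt5 KO 4 (42.4 CPM) and in Control 1 (18.8 CPM), the libraries which were also the highest of their groups for Asz1 and Ddx4. The sum of the germ cell markers was high in Prmt5 KO 4 (3668 CPM, the others 3077 to 3165).

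Prmt5 KO 1 had a high sum of somatic gonad markers (599 CPM), and there the smooth muscle gene Acta2 reached 208 CPM and Col1a1, of type I collagen, 92.9 CPM. Among Control libraries, Col1a1 was high in Control 2 (6.25 CPM) and Tek, the angiopoietin receptor, in Control 1 (28.9 CPM).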

How the results depend on the processing

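0 of the tested members were called under each of the 18 alternatives, as in the fit to all libraries. The direction was the same in every alternative for Mov10l1, Gpat2 and Pld6 (Pld6 gave no value after thinning). It turned for 4 genes whose log2 fold change was near 0 or rested on a few libraries. In limma voom the log2 fold change was -0.082 for Piwil2, -0.27 for Mael, -0.025 for Asz1 and -0.16 for Ddx4. Without Control 2 and 3, the shallowest libraries, it was -0.52 for Piwil2, -0.26 for Mael, -0.16 for Asz1 and -0.32 for Ddx4. Without Prmt5 KO 1 and 4, which stood apart, it was -0.045 for Piwil2, -0.96 for Mael, -0.73 for Asz1 and -0.47 for Ddx4, and the median of the members moved to -0.60. On leaving out 1 library it ran from -0.23 to 0.54 for Piwil2, -0.21 to 0.51 for Mael, -0.45 to 1.43 for Asz1 and -0.31 to 0.28 for Ddx4; the cause was not tested.

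The number of genes called, 3 in the fit to all libraries, was 107 in DESeq2, 7 with no filter, 1 in limma voom, 1 with summed transcripts, 1 without Prmt5 KO 1 and 4, 0 without Control 2 and 3 (713 at an unadjusted p under 0.05) and 1 to 2 on leaving out 1 library. DESeq2 also called 1 Tudor domain gene, Tdrkh. Prmt5 lost its call in limma voom (log2 fold change -1.76), with summed transcripts (-2.25), when Control 2 and 3 (-1.54) or Prmt5 KO 1 and 4 (-1.85) were left out, and without each single library other than Control 1 (-2.11 to -1.82 over the 8 fits). With the replicate number as a block, 1 gene was called, Prmt5 was at -1.92 and not called, and no member was called. Same-numbered libraries deviated together with r from 0.0023 to 0.069. The Control library most like Prmt5 KO 1, 2 and 4 was the one of the same number, and for Prmt5 KO 3 it was Control 1. With r this small, the numbers were not taken to pair the libraries, and whether they do was not tested. Few reads limit what can be said of Piwil4, Gtsf1, Henmt1 and Pld6, which had 105, 26, 3 and 165 reads over all libraries.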

Other observations

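Tek, which was chosen as an endothelial marker, was at 72.4, 12.2, 53.7 and 71.0 CPM in Prmt5 KO 1 to 4, against 28.9, 4.46, 7.68 and 8.09 CPM in Control 1 to 4 (log2 fold change 2.05, edgeR adjusted p = 0.409, DESeq2 adjusted p = 0.0430). The endothelial genes Cdh5 and Tie1 reached at most 1.52 and 1.19 CPM in Prmt5 KO libraries, against 5.80 and 0.169 CPM in Control libraries, and Kdr was at 0 in every Prmt5 KO library, against up to 1.65 CPM in Control. Pecam1, which primordial germ cells also express, averaged 276 ± 46.2 CPM in Prmt5 KO and 283 ± 46.1 CPM in Control (SD, n = 4 each), and Egfl7 had a log2 fold change of -1.18 (edgeR adjusted p = 0.684). Of the blood markers, Csf1r averaged 23.7 ± 14.2 CPM in Prmt5 KO and 33.8 ± 9.42 CPM in Control (SD, n = 4 each), while Ptprc and Lyz2 were at 0 in every Control library and had 1 read each in Prmt5 KO. Exons of Csf1r overlap those of Hmgxb3 on the opposite strand, so its value is uncertain.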
